A study of Mus musculus with 10 samples.

Results

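Arginine, nitric oxide and polyamine enzymes were followed as 10 genes, taken from the deposited count table by symbol: Arg1, Arg2, Nos2, Nos3, Ass1, Odc1, Srm, Sms, Sat1 and Slc7a2. All 10 were found among the 55421 genes of the table, each in a single row, and all 10 passed the low-count filter that left 18509 genes for testing. The tissue was skin ulcer of db/db mice, which lack a working leptin receptor and become obese and diabetic, wounded by surgical excision. After 7 days of administration, saline alone had been given to the ulcers of 5 libraries, and saline together with Fu Huang ointment to those of the other 5. Both groups were diabetic and wounded, and both received saline. Neither unwounded skin, non-diabetic wounds nor an ointment base without its ingredients is analysed here. The labels give no age or sex and do not say whether each library came from a separate animal or from pooled animals, so the spread behind each p-value is that between libraries and may in part be technical. The comparison is of ulcers with and without the ointment.

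Arginine enters cells through cationic amino acid carriers such as Slc7a2 and can be rebuilt from citrulline by Ass1 and its partner Asl. Nitric oxide synthases turn it into nitric oxide and citrulline, while arginases turn it into urea and ornithine. Ornithine is decarboxylated by Odc1 to the polyamine putrescine, which Srm and Sms extend to spermidine and spermine and which growing cells need, or it is passed on to proline, a building block of collagen. In wounds, Nos2 and Arg1 are known as products of inflammatory and repair-type macrophages, and Arg1 is also made by other myeloid cells and by keratinocytes.

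Libraries held 58.1 to 62.7 M counts (M, mega) with saline and 47.8 to 62.9 M with ointment. Levels are given as CPM (counts scaled to library size, with TMM normalization), listed for libraries 1 to 5 in order. Fold changes are ointment over saline, from edgeR's quasi-likelihood test with Benjamini-Hochberg adjustment over all 18509 genes at a threshold of 0.05. Intervals are 95% and unadjusted. Summed over 16 macrophage markers, levels were 3860 to 6280 CPM with saline and 7850 to 10900 CPM with ointment. Fibroblast markers (11) were at 36300 to 55200 against 18700 to 59500 CPM and basal keratinocyte markers (10) at 11200 to 19800 against 10800 to 19700 CPM, and no gene of these 3 lists was at 0 in any library. Hair follicle markers (13 measured) were at 42.9 to 726 CPM with saline and 15.6 to 43.4 CPM with ointment. In bulk tissue, fewer cells of a type and less RNA per cell cannot be told apart.

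None of the 10 genes passed the threshold in either direction. Over all genes tested, 1.67% were called. At an unadjusted p under 0.05, 2 of the 10 (Arg1 and Nos2) were found by edgeR, where 17.1% of all genes were. A DESeq2 Wald test called those 2 as higher, among 1677 genes that it called over the whole table against 310 by edgeR, and limma voom called none. Of the 10 estimates 7 were positive and 3 negative, with a median log2 fold change of 0.20 against -0.0025 over all genes tested. In no gene of the 10 did the saline and ointment libraries separate without overlap, as they did in 6.54% of all genes tested. On simulated counts with the spread of these libraries, the same test recovered 44% of genes changed 4-fold and 13% of genes changed 2-fold. Few genes were changed in that simulation, and it gave 59 calls against 310 here. Recovery after adjustment depends on the share of changed genes, so these rates may not carry over to this comparison. The estimates ran from a log2 fold change of -0.32 (Nos3) to 2.79 (Nos2), and the widest intervals were those of Nos2, Arg1 and Arg2.

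**Figure D1:**
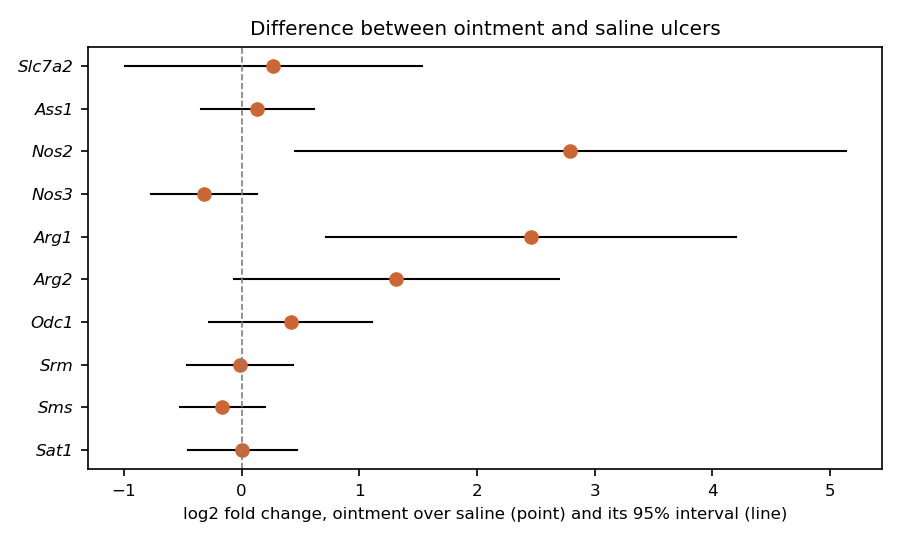
Log2 fold change of each gene, ointment over saline (points, x axis), with its unadjusted 95% interval (lines). The intervals of Arg1 and Nos2 lie above 0 and those of the other 8 genes include 0; no gene passed the threshold after adjustment over all genes.

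Arg1 encodes the cytosolic arginase (chromosome 10, 24915221 to 24927484, minus strand, GRCm38). It was at 275, 328, 31.3, 519 and 75.2 CPM in the saline ulcers and at 540, 1816, 1201, 416 and 2781 CPM in the ointment ulcers. Every ointment library but the fourth exceeded the highest saline library, and ointment 4 exceeded all saline libraries but saline 4. The group means were 246 ± 198 CPM and 1351 ± 977 CPM (SD, n = 5 each), a 5.50-fold difference (log2 fold change 2.46, SE 0.78, interval 0.72 to 4.20) that did not pass (adjusted p = 0.143). From the lowest library to the highest the level spanned 88.7-fold. The estimate stayed between 2.02 (without ointment 5) and 2.91 (without saline 4) when each library was left out, and the adjusted p stayed between 0.109 and 0.287. DESeq2 gave 2.47 with an adjusted p of 0.0101.

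Arg2 encodes the mitochondrial arginase (chromosome 12, 79130777 to 79156301, plus strand). It was at 14.2, 20.8, 20.1, 35.4 and 30.9 CPM with saline and at 22.4, 40.2, 41.3, 16.9 and 181 CPM with ointment. Ointment 5 stood far above the other 9 libraries, ointment 2 and 3 lay just above the highest saline library, and ointment 1 and 4 lay within the saline range. The log2 fold change was 1.31 (SE 0.62, interval -0.07 to 2.70, adjusted p = 0.319), and without ointment 5 it was 0.32 (SE 0.35, adjusted p = 0.788). The exons of Arg2 overlap the protein-coding gene Vti1b and an antisense transcript on the other strand. Whether the libraries kept strand is not stated, and without strand the reads of overlapping genes cannot be told apart.

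Nos2 encodes the inducible nitric oxide synthase (chromosome 11, 78920787 to 78960254, plus strand). It was at 3.88, 25.9, 6.65, 31.3 and 34.7 CPM with saline and at 20.6, 60.5, 142, 10.2 and 477 CPM with ointment. Ointment 2, 3 and 5 exceeded every saline library, whereas ointment 1 and 4 fell within the saline range. Its log2 fold change was 2.79 (SE 1.05, interval 0.45 to 5.14), or 6.94-fold, and did not pass (adjusted p = 0.207). Without ointment 5 the estimate was 1.51 (SE 0.85, adjusted p = 0.495), and leaving out any other library gave 2.51 to 3.10. With limma voom, which weights libraries by their quality, it was 1.85 (adjusted p = 0.377).

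Nos3 encodes the synthase of blood vessel endothelium (chromosome 5, 24364810 to 24384474, plus strand), whose exons overlap Atg9b on the other strand. It was at 14.7, 30.4, 19.5, 17.1 and 21.2 CPM with saline and at 20.2, 15.5, 17.9, 13.6 and 15.3 CPM with ointment. The groups overlapped over most of their range, with saline 2 alone above all the rest. The log2 fold change was -0.32 (SE 0.20, interval -0.77 to 0.13, adjusted p = 0.482), and without saline 2 it was -0.12 (adjusted p = 0.796). The neuronal synthase gene Nos1 was at 0.841 to 5.98 CPM over the 10 libraries (log2 fold change 0.27, adjusted p = 0.879), and its estimate turned to -0.33 without ointment 4.

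**Figure D2:**
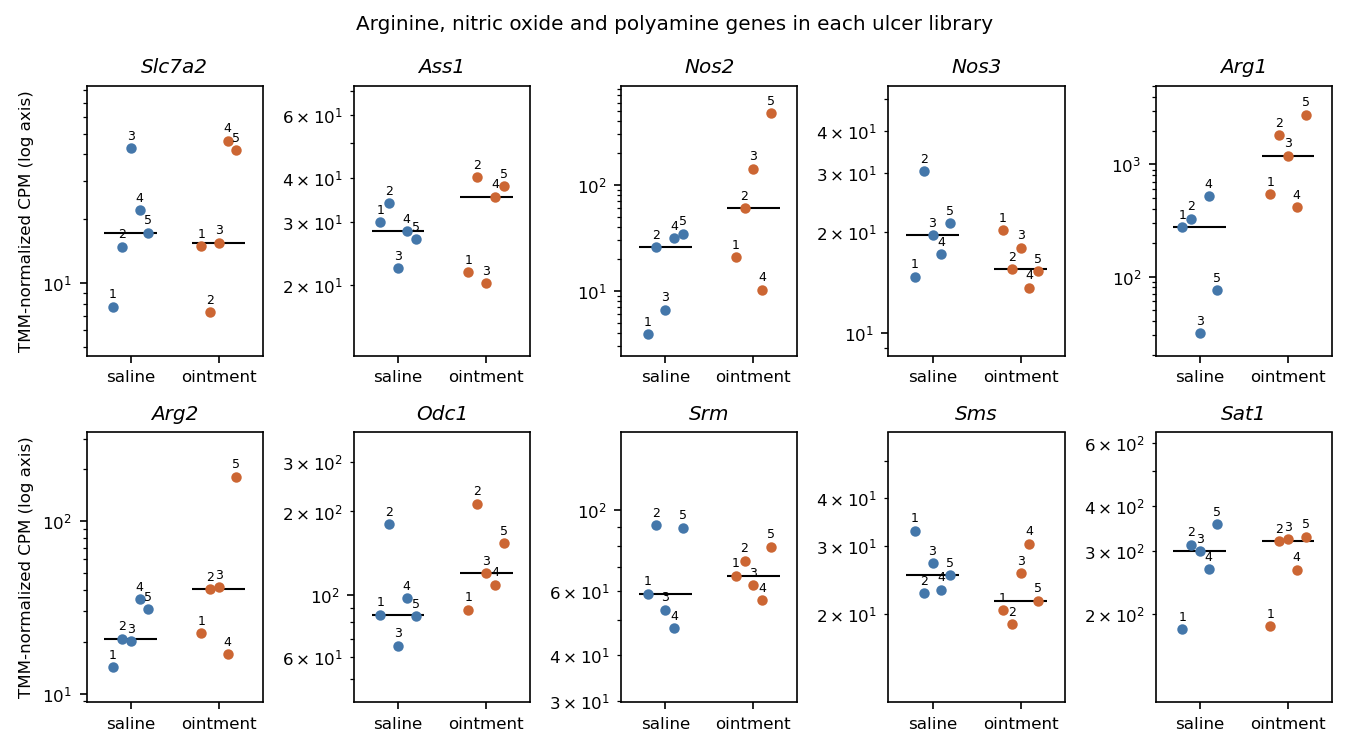
TMM-normalized CPM (log axis, own scale per panel) of the 10 genes in each saline (blue) and ointment (orange) library, with library numbers and the group median (line). Ointment 5 is the highest library for Arg1 (2781 CPM), Arg2 (181 CPM) and Nos2 (477 CPM), while the groups overlap in every panel.

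Markers of myeloid cells were set beside the arginases and Nos2, and their order over the libraries matched only in part. The summed macrophage markers were higher in every ointment library than in any saline library, and all 16 had positive fold changes, of which 3 were called (Adgre1, Cd68 and Trem2; median log2 fold change of the list 0.73). The 14 neutrophil markers summed to 893, 2348, 1718, 3208 and 1368 CPM with saline and to 2682, 5723, 3786, 1953 and 9991 CPM with ointment. All 14 had positive fold changes and none was called (median 1.71). Ointment 5, which led Arg1, Arg2 and Nos2, also held the highest sum of both lists. Ointment 4, the lowest ointment library for all 3 genes, held the lowest ointment sum of both lists. Saline 5 and ointment 1 went against this. Saline 5 had the highest saline Nos2 (34.7 CPM), but its neutrophil sum was below those of saline 2, 3 and 4. Its macrophage sum was 6183 CPM, below only saline 4 in its group, while its Arg1 was at 75.2 CPM. Ointment 1 had 8221 CPM of macrophage markers, with Arg2 and Nos2 inside the saline range. Of the neutrophil markers, Ngp and Camp were at 0 in at least 1 library, and no macrophage marker was. S100a8 and S100a9 made up most of the neutrophil sum in every library, with 2521 and 3788 CPM in ointment 5. Lyz2 gave 6207 of the 10900 CPM of the macrophage sum in ointment 5 and 594 of 3857 CPM in saline 3. The macrophage ranks of ointment 5 and ointment 4 given above rest on Lyz2. With that gene left out, ointment 3 held the highest macrophage sum and ointment 1 the lowest of the ointment libraries. The sums thus follow a few genes, and which cells made these transcripts was not tested.

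Set against the summed macrophage markers, Arg1 came to 6.56, 7.06, 0.813, 8.26 and 1.22% with saline and to 6.57, 21.4, 12.6, 5.30 and 25.5% with ointment, so that the groups overlapped. Against the summed neutrophil markers it came to 1.82 to 30.8% with saline and 20.1 to 31.7% with ointment. Nos2 came to 0.387 to 2.54% of the neutrophil sum with saline and to 0.524 to 4.78% with ointment. Differentiated keratinocyte markers summed to 4380 to 10500 CPM with saline and to 1830 to 3790 CPM with ointment. Krt1 and Krt10, keratins of the upper epidermis, made up most of that sum in every saline library, with means of 2644 and 1911 CPM. With ointment their means were 649 and 547 CPM, and they made up most of the sum in ointment 1 only. Of the 13 markers tested, 8 had negative fold changes, of which 2 were called (Krtdap and Dsc1), and 5 had positive ones, among them Ivl (1.51), Dsg1a (0.74) and Tgm1 (0.54), none of which was called. Calml3 was at 0 in 6 of the 10 libraries. The part of these cell types in the levels of Arg1, Arg2 and Nos2 was not tested.

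For Nos3, the 14 blood endothelial markers summed to 945 to 1400 CPM with saline and to 597 to 1140 CPM with ointment. All 14 had negative fold changes and none was called (median -0.38), and Cldn5 was at 0 in at least 1 library. Nos3 is not among these markers. Its level came to 1.43, 2.16, 1.74, 1.81 and 1.88% of the size of their sum with saline and to 1.78, 2.39, 1.90, 1.51 and 2.55% with ointment. These ratios overlapped between the groups, and their highest values were in ointment 5 and ointment 2, the libraries with the lowest endothelial sums.

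**Figure D3:**
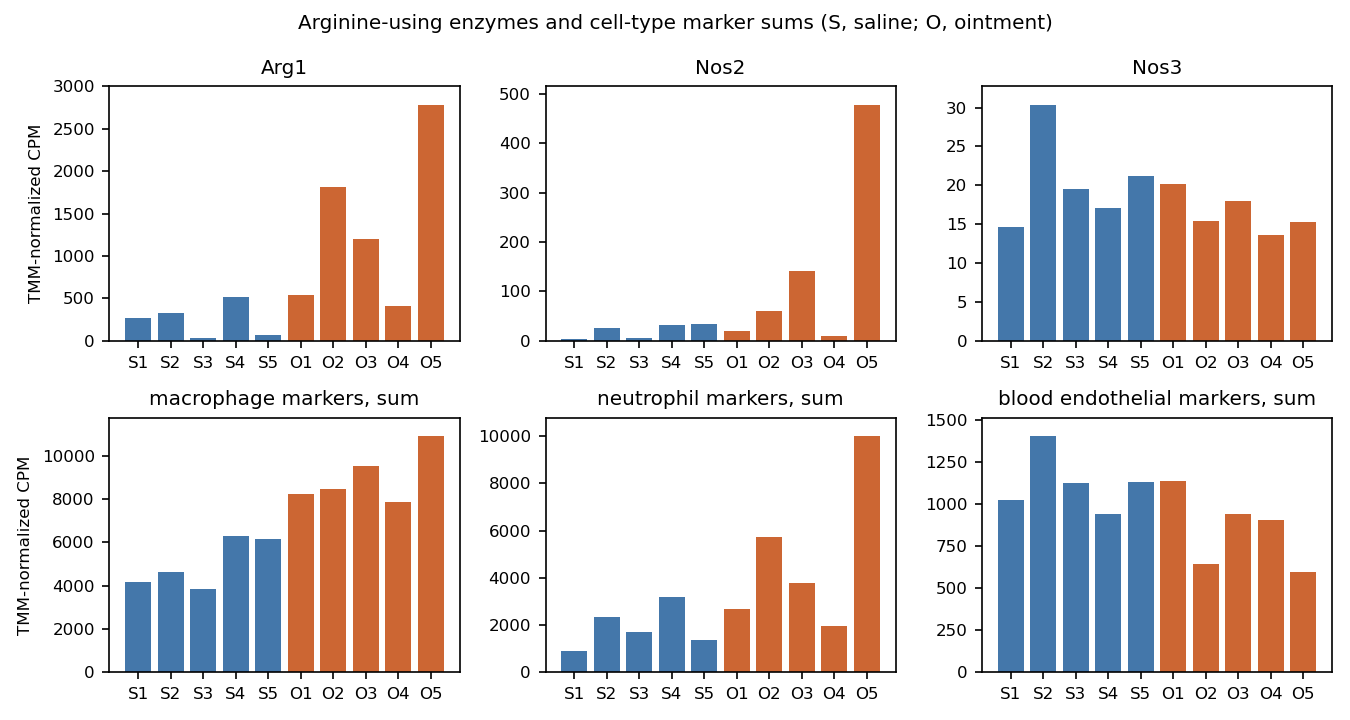
TMM-normalized CPM of Arg1, Nos2 and Nos3 (top) and of summed macrophage, neutrophil and blood endothelial markers (bottom) in saline libraries (S1 to S5, blue) and ointment libraries (O1 to O5, orange). O5 has the tallest bar for Arg1, Nos2 and the macrophage and neutrophil sums, and the shortest for the endothelial sum (597 CPM).

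Per kilobase of exon, Arg1 outnumbered Nos2 in every library. The ratio of the 2 levels was 140, 25.2, 9.34, 32.8 and 4.29 with saline and 51.8, 59.4, 16.7, 80.5 and 11.5 with ointment. The medians were 25.2 and 51.8 and the ranges overlapped, with saline 1 above every ointment library. Ointment 5, highest in both genes, had the lowest ratio of its group. Against Arg2, Arg1 per kilobase stood at 0.999 and 1.56 in saline 3 and 5, at 9.40 to 12.4 in the other saline libraries, and at 9.84 to 28.9 in the ointment libraries.

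Supply of arginine was measured through the carrier gene Slc7a2 and the citrulline enzyme gene Ass1. Slc7a2 (chromosome 8, 40862396 to 40922308, plus strand) was at 7.76, 14.8, 42.9, 21.9 and 17.2 CPM with saline and at 14.9, 7.29, 15.5, 46.5 and 42.0 CPM with ointment. Saline 3, ointment 4 and ointment 5 were high and the other 7 libraries lay at or below 21.9 CPM. The log2 fold change was 0.27 (SE 0.57, interval -0.99 to 1.53, adjusted p = 0.879), and it turned to -0.06 without ointment 4. A long noncoding RNA gene on the other strand overlaps its exons.

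Ass1, argininosuccinate synthase (chromosome 2, 31470207 to 31520672, plus strand), was at 30.0, 34.0, 22.3, 28.3 and 26.9 CPM with saline. With ointment it was at 21.8, 40.1, 20.3, 35.4 and 37.8 CPM, which held both the 3 highest and the 2 lowest of the 10 values. The log2 fold change was 0.13 (SE 0.22, interval -0.35 to 0.62, adjusted p = 0.833). Its spread was wider with ointment, with a coefficient of variation of 30.0% against 15.1%.

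The polyamine genes start with Odc1, ornithine decarboxylase, whose protein is short-lived and is marked for destruction by antizyme (chromosome 12, 17544794 to 17551505, plus strand). At the other end stands Sat1, the acetyltransferase that tags spermidine and spermine for export or breakdown (chromosome X, 155213132 to 155216449, minus strand). RefSeq promoter windows (GRCm38.p6) were matched for 4 of the 10 genes, and those of the genes for these 2 regulated steps are shown as the regulatory sequence next to the transcripts measured. Each runs 5′ to 3′ on the gene's strand and ends before the first annotated base of the gene. Capitals mark the GC box GGGCGG or its reverse complement CCGCCC.
Odc1, chr12:17544623-17544793, plus strand: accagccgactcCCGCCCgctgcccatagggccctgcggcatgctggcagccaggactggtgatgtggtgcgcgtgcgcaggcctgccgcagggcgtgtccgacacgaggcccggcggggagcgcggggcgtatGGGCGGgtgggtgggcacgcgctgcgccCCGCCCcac
Sat1, chrX:155216450-155216699, minus strand: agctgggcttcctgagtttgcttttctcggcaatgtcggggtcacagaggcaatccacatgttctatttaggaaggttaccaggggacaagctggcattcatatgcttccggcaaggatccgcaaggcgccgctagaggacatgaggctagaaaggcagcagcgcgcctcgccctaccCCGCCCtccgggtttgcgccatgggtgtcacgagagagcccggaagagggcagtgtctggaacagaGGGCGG
The Odc1 window of 171 bases held 3 GC boxes and was 77.2% G and C, against a median of 50.9% over 32851 promoters in the same window, of which 19.6% held a GC box. The Sat1 window of 250 bases held 2 GC boxes and was 59.6% G and C, against a median of 52.4%, and 32.7% of promoters held a GC box there. Neither window held the TATA box TATAAA, found on either strand in 8.09% of promoters over the Odc1 window and 12.4% over the Sat1 window. Neither held the E-box CACGTG, found in 3.41% and 6.02%. The Odc1 window stops at the outermost annotated start of the gene, short of the RefSeq start. The bases next to the RefSeq start were thus not searched, and a TATA box there would be missed. The motif searches covered both strands and none of the 3 motifs overlaps another. These matches describe the letters and not sites of binding.

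Odc1 was at 85.3, 181, 66.1, 97.7 and 84.1 CPM with saline and at 89.0, 213, 120, 109 and 154 CPM with ointment. Ointment 2 was the highest of all, saline 2 came second, and the other 4 saline libraries lay below all but 1 of the ointment libraries. Means were 103 ± 44.9 and 137 ± 48.7 CPM (SD, n = 5 each; log2 fold change 0.42, SE 0.31, interval -0.27 to 1.11, adjusted p = 0.57). The estimate rested on single libraries in both directions: it was 0.73 without saline 2 (adjusted p = 0.192) and 0.20 without ointment 2 (adjusted p = 0.829).

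The aminopropyl transferases, which add the further units of spermidine and spermine, showed small estimates. Srm, spermidine synthase (chromosome 4, 148591503 to 148594993, plus strand), was at 59.1, 91.0, 53.4, 47.5 and 89.7 CPM with saline and at 66.2, 72.8, 62.3, 56.7 and 79.5 CPM with ointment. All 5 ointment values lay inside the saline range (log2 fold change -0.01, SE 0.20, interval -0.46 to 0.44, adjusted p = 0.987). Sms, spermine synthase (chromosome X, 157443855 to 157492287, minus strand), was at 32.9, 22.7, 27.1, 23.1 and 25.2 CPM with saline and at 20.5, 18.8, 25.6, 30.4 and 21.7 CPM with ointment. Ointment 1, 2 and 5 fell below every saline library and ointment 3 and 4 did not (log2 fold change -0.16, SE 0.16, interval -0.52 to 0.20, adjusted p = 0.692).

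Sat1 was at 181, 312, 299, 267 and 356 CPM with saline and at 185, 319, 324, 266 and 328 CPM with ointment. Library 1 of each group was the lowest, and the remaining values of both groups lay between 266 and 356 CPM. The log2 fold change was 0.01 (SE 0.21, interval -0.46 to 0.47, adjusted p = 0.995). For Srm, Sms and Sat1 the interval excludes a 2-fold difference in either direction. It also does so for Ass1 and Nos3, but not for the arginases, Nos2, Odc1 or Slc7a2.

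**Figure D4:**
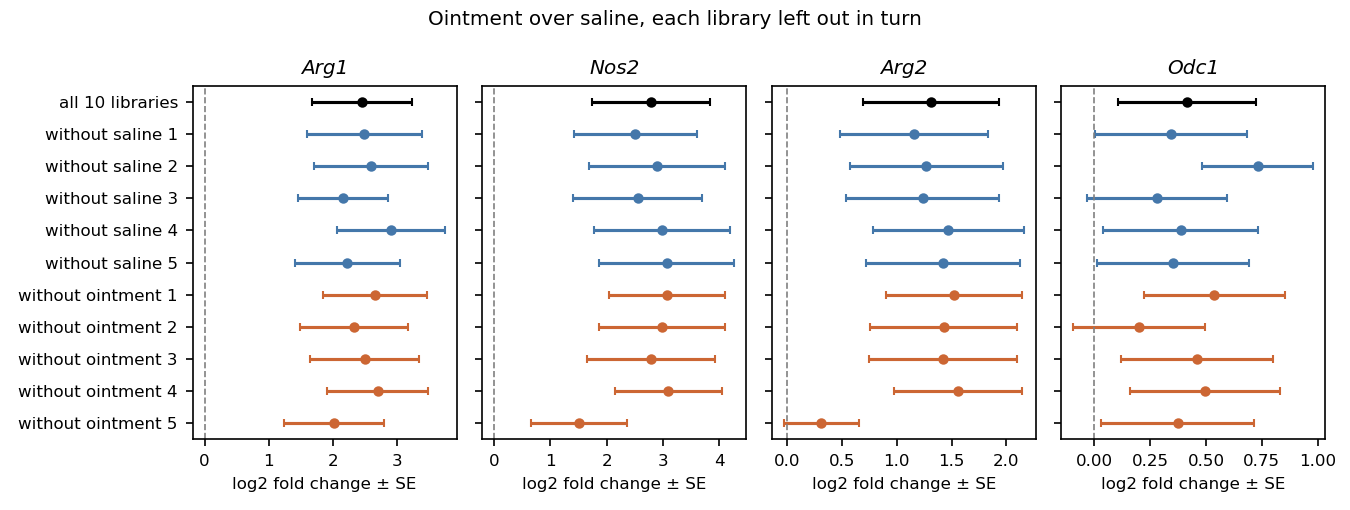
Log2 fold change of Arg1, Nos2, Arg2 and Odc1 ± SE, ointment over saline, with all 10 libraries (black) and with each saline (blue) or ointment (orange) library left out. Without ointment 5, Arg2 moves from 1.31 to 0.32 and Nos2 from 2.79 to 1.51, while Arg1 stays at or above 2.02.

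Levels of different genes were compared per kilobase of the union of annotated exons (CPM per kilobase). With saline the order by mean was Arg1 (110 ± 89.0), Sat1 (102 ± 23.5), Srm (42.6 ± 12.9), Odc1 (30.2 ± 13.2), Arg2 (17.0 ± 6.04), Ass1 (11.7 ± 1.77), Nos3 (4.98 ± 1.45), Nos2 (4.64 ± 3.24), Sms (4.36 ± 0.692) and Slc7a2 (2.29 ± 1.45; SD, n = 5 throughout). Sat1 exceeded Srm, and Ass1 exceeded Nos3, without overlap between libraries. The ranges of all other neighbours overlapped, and Arg1 exceeded Sat1 in 3 of the 5 saline libraries. With ointment, Arg1 (606 ± 438) exceeded Sat1 (102 ± 21.9) in all 5 libraries, and the lowest Arg1 value (187) was above the highest of Sat1 (118). Arg2 (42.3 ± 47.9) and Nos2 (32.2 ± 44.1) stood in the third and the sixth place by their means, but Arg2 exceeded the next gene, Srm (42.2 ± 5.59), in 1 of 5 libraries and Nos2 exceeded the next, Ass1 (12.9 ± 3.87), in 2 of 5. Odc1 (40.3 ± 14.3), Nos3 (3.99 ± 0.626), Sms (3.89 ± 0.775) and Slc7a2 (2.76 ± 1.94) made up the rest, and of the ointment neighbours only Arg1 over Sat1 and Ass1 over Nos3 did not overlap. With the longest annotated transcript as the length, a choice made after seeing the data, Sat1 (209) came before Arg1 (166) in the saline ulcers, and Arg1 (915) before Sat1 (210) in the ointment ulcers. By that length Odc1 (62.1) and Srm (50.4) came before Arg2 (42.3) with ointment, and Sms (7.05) came before Nos3 (4.98) and Nos2 (4.89) with saline.

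**Figure D5:**
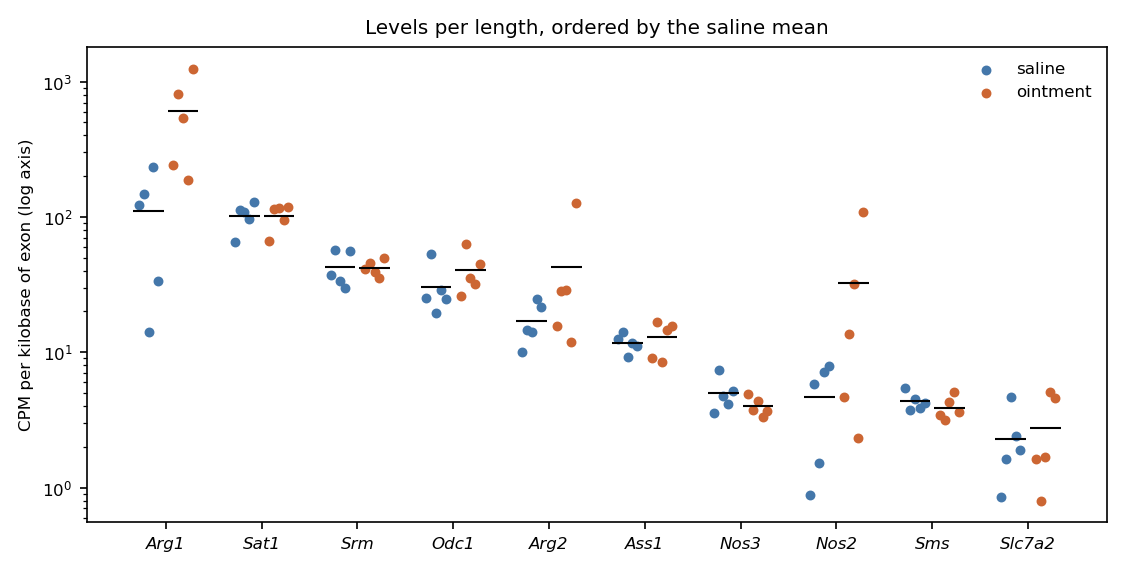
CPM per kilobase of exon (log axis) of each gene in the saline (blue) and ointment (orange) libraries, with group means (lines), ordered by the saline mean. Arg1 and Sat1 have like means with saline (110 and 102), and Arg1 stands clear of Sat1 in all 5 ointment libraries.

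The wider pathway was read from 4 lists. Of 15 tested genes of arginine supply and the urea cycle, Arg1, Arg2, Ass1 and Slc7a2 included, none was called by edgeR. At an unadjusted p under 0.05 there were 4, DESeq2 called 2 higher (Arg1 and Asl), and limma voom called none. The list's median was 0.13, with 9 positive estimates. Asl, argininosuccinate lyase, which completes arginine synthesis after Ass1, was at 16.1 to 20.9 CPM in the saline libraries and at 23.3 to 26.4 CPM in the ointment libraries. The groups did not overlap, as in 3.11% of all genes with higher ointment values, but the difference did not pass (log2 fold change 0.33, SE 0.10, adjusted p = 0.141). Slc7a1, the more widely expressed arginine carrier, was at 44.2 ± 6.47 CPM against 34.2 ± 2.46 CPM (SD, n = 5 each), a log2 fold change of -0.37 (adjusted p = 0.144). The mitochondrial aspartate and glutamate carrier gene Slc25a13 had -0.38 (adjusted p = 0.246). The liver urea cycle genes Cps1, Otc and Nags were at most at 0.483 CPM in any library and were not tested.

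Of 22 tested genes of nitric oxide synthesis and signalling, Nos2 and Nos3 included, edgeR called none. Unadjusted, 2 had a p under 0.05, DESeq2 called 2 higher (Nos2 and Nostrin), and limma voom called none. The median was 0.07, with 13 positive estimates. Nostrin, which encodes a protein that binds the endothelial synthase and moves it off the membrane, was at 8.97 to 11.9 CPM with saline and at 12.8 to 19.1 CPM with ointment, a log2 fold change of 0.54 (SE 0.15, adjusted p = 0.103). Its groups did not overlap. Gucy1b1, a subunit of the soluble guanylate cyclase that senses nitric oxide, was at -0.42 on the log2 scale (SE 0.20, adjusted p = 0.337). Nos1ap was at 0.85 (adjusted p = 0.338) and Adh5 at 0.15 (adjusted p = 0.45). Gch1, the first enzyme of the synthases' cofactor tetrahydrobiopterin, came to 0.09 on the log2 scale (adjusted p = 0.882) and to -0.04 without ointment 5.

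Of 24 tested polyamine genes, Odc1, Srm, Sms and Sat1 included, edgeR called none. Unadjusted, 3 had a p under 0.05, DESeq2 called 1 higher (Azin1), and limma voom called none. The median was 0.09, with 14 positive estimates. In 2 genes of this list, both higher with ointment, the groups did not overlap, as in 3.11% of all genes tested. Azin1, the antizyme inhibitor, was at 86.8 to 96.2 CPM with saline and at 98.8 to 140 CPM with ointment, a log2 fold change of 0.34 (SE 0.10, adjusted p = 0.13). Oaz1, antizyme, was at 280 to 343 CPM with saline and at 346 to 437 CPM with ointment, a log2 fold change of 0.32 (SE 0.11, adjusted p = 0.172). The polyamine exporter of lysosomes Atp13a2 had 0.33 (SE 0.13, adjusted p = 0.21), and Azin2, a second antizyme inhibitor, had 0.38 (adjusted p = 0.366). The other antizyme genes had negative estimates that did not pass, Oaz2 with -0.28 (adjusted p = 0.856) and Oaz3 with -1.10 (adjusted p = 0.398) at a level under 1 CPM. Smox, spermine oxidase, was at 235 CPM in ointment 5 and at 44.1 to 122 CPM in the other 9 libraries (log2 fold change 0.51, adjusted p = 0.6), and its estimate was 0.03 without ointment 5.

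Among 10 tested genes that lead from ornithine to proline and glutamate, 1 fell and none rose. Aldh4a1, the mitochondrial enzyme of proline breakdown, was at 12.1, 9.63, 10.6, 14.7 and 11.5 CPM with saline and at 6.56, 6.33, 4.59, 7.74 and 4.16 CPM with ointment. Every ointment library lay below every saline library, as in 3.44% of all genes tested, and 0.983% of all genes were called lower. The log2 fold change was -0.99 (SE 0.21, adjusted p = 0.046). The call was lost when any library except ointment 4 was left out (adjusted p up to 0.111), with 4 libraries per group (0.166), with no low-count filter (0.0733) and with library sizes alone (0.0584). Aldh18a1, the first enzyme of proline synthesis from glutamate, was at 54.3 to 76.6 CPM with saline and 26.9 to 53.8 CPM with ointment (-0.50, SE 0.19, adjusted p = 0.206). Prodh, proline dehydrogenase, had -0.43 (adjusted p = 0.24) and Pycr1, an enzyme of the last step of proline synthesis, had -0.53 (adjusted p = 0.287). Oat, which links ornithine to this branch, had -0.11 (adjusted p = 0.876) and 0.02 without ointment 4. The list's median was -0.15, and 6 of its 10 estimates were negative. At an unadjusted p under 0.05 there were 4 of the 10, where 17.1% of all genes were. In 2 genes, both lower with ointment, the groups did not overlap. DESeq2 and limma voom each called Aldh4a1 lower and no other gene of the list.

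The genes most like 5 of the enzymes were sought by Pearson's r of log2 CPM over the 10 libraries after the mean of each group was subtracted, among genes with a mean of at least 5 CPM. The r without that subtraction is given after each and was often much lower. Arg1 was most like Hnrnpa1 (r = 0.962, unsubtracted 0.554) and Limd1 (0.96, 0.196). Nos2 was most like Cdc5l (0.982, 0.896), Prdx1 (0.967, 0.976) and Magt1 (0.966, 0.413). Nos3 was most like Ssbp4 (0.947, 0.511), Snd1 (0.938, 0.786) and Pprc1 (0.911, 0.923). Odc1 was most like N4bp2l2 (0.932, 0.387), Ddx5 (0.931, 0.933) and Hbegf (0.929, 0.793). Ass1 was most like Suv39h1 (0.923, 0.922), Chkb (0.922, 0.904) and Hbs1l (0.922, 0.904). These are the highest values of a search over many genes, each over 10 points that share libraries, so they carry no p and are given as a description.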

How the data were processed

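RNA of ulcer tissue was sequenced in 10 libraries, prepared per the labels' protocols with SMARTer mRNA reagents. The submitters' processing notes name GRCm38 (mm10) as the genome. How reads were aligned and counted, and on which annotation, is not given in the sources used here. Whole-number counts per gene were deposited by the authors without normalization. The value 4 occurred 9202 times and the values 3 and 5 occurred 4235 and 5804 times. The values 8 (4812 times) and 12 (3028 times) were also more frequent than their neighbours. The cause of this excess was not tested, and the deposited values were treated as estimated counts. Being whole, they needed no rounding. Columns were matched to samples by description and title. Groups were compared with edgeR 4.0.16 (R 4.3.3): robust quasi-likelihood F-test, TMM, filterByExpr (minimum count 10, minimum total 15), group as the only term, two-sided, Benjamini-Hochberg adjusted over 18509 genes. Coordinates and exon lengths came from GENCODE M21 on GRCm38. The named genes were the 10 enzymes, up to 4 others with the smallest p per pathway list, and 3 most-like genes for 5 enzymes, of which 1 is not reported here; Nos1, Gch1, Smox, Oat, Oaz2, Oaz3, the keratinocyte markers and the genes of the closing section were chosen after their values were seen. The genes and lists were chosen with earlier results of these data known. Alternatives were other scalings, filters and dispersion, DESeq2 1.42.0, limma 3.58.1 voom, a replicate block, values divided by 4, and libraries left out. On simulated data for 18509 genes, edgeR made 59 calls, of which 3.39% were false. Total counts were 47.8 to 62.9 M per library.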

Additional observations from a re-analysis of the deposited data

Results flagged for a closer look

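Among 52 groups of 5 values examined (26 quantities in each group), 5 held a library far from the other 4. Chance flags about 1 in 20 where values are normally distributed and independent. CPM need not be, and the ratio is built from Arg1 and Nos2, so that rate may not hold here. Arg2 in ointment 5 was 181 CPM while libraries 1 to 4 of that group ranged from 16.9 to 41.3 CPM. Nos2 in ointment 5 was 477 CPM against 10.2 to 142 CPM. Odc1 in saline 2 was 181 CPM against 66.1 to 97.7 CPM in the other saline libraries. The ratio of Arg1 to Nos2 per kilobase in saline 1 was 140 against 4.29 to 32.8. Asl in ointment 4 was 26.4 CPM against 23.3 to 23.7 CPM.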

How the results depend on the processing

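No enzyme of the 10 was called under any alternative except DESeq2, which called 2 higher (Arg1 at 2.47 and Nos2 at 2.81). DESeq2 also called 2, 2 and 1 genes of the arginine, nitric oxide and polyamine lists where edgeR called 0, and 873 higher and 804 lower genes in all against 128 and 182 (52.1% against 41.3% of calls higher). Over all genes the counts were 85 higher without a low-count filter and 21 higher and 38 lower with 4 libraries per group. Leaving out 1 library each gave 45 to 199 higher and 55 to 223 lower. The 1 gene called in the proline list became 0 with library sizes alone, no low-count filter, the replicate block and 4 libraries per group, and 0 to 1 with each library left out. With the replicate block 0 genes were called higher and 0 lower (2602 at an unadjusted p under 0.05; 1 of the 10 enzymes). Same-numbered libraries did not deviate together (correlations -0.0772 to 0.0562, against -0.129 to 0.124 for libraries of different number). The labels do not say whether the numbers pair the samples, and a pairing with weak shared effects could look the same. Direction held in 191 of 210 gene and setting pairs for the enzymes and in 451 of 458 for 22 further genes of the pathway lists named in the text (Nos1ap, Nos1 and Oaz3 have no value with a filter at 5 CPM, nor Oaz3 with values divided by 4). Estimates near 0 turned: Ass1 to -0.000882 with limma voom. Srm turned to 0.0293 with the replicate block and to 0.126, 0.105, 0.0143 and 0.0534 without saline 2, saline 5, ointment 3 and ointment 4 (-0.129 to 0.126 over all 10 libraries left out). Sat1 turned to -0.0258 with upper-quartile scaling, -0.0516 with library sizes alone, -0.0124 with a filter at 5 CPM, -0.0178 with limma voom, -0.175 with 4 libraries per group, and below 0 without saline 1, saline 4, ointment 2, ointment 3 or ointment 5 (-0.128 to 0.126 over all 10). Slc7a2 turned to -0.00895 with limma voom, -0.065 without ointment 4 (-0.065 to 0.697 over all 10) and -0.203 with 4 libraries per group. Nos1 turned to -0.168 with limma voom, -0.121 with the replicate block and -0.334 without ointment 4 (-0.334 to 0.489 over all 10). Gch1 turned to -0.0394 without ointment 5 (-0.0394 to 0.192) and -0.0477 with 4 libraries per group, Smox to -0.119 with 4 libraries per group, and Oat to 0.0225 without ointment 4 (-0.265 to 0.0225). The cause of these turns was not tested. The ratio of Arg1 to Nos2 had medians of 17.2 to 29.0 with saline and 34.3 to 55.6 with ointment when 1 library was left out.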

Other observations

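Of 63 genes of the lists with a mean of at least 5 CPM, 5 had a step of at least 2-fold between neighbouring libraries, leaving out single end libraries. The largest was in Arg1 (3.66-fold), with saline 3 and 5 at 31.3 and 75.2 CPM and the other 8 libraries from 275 CPM up, and Nos2 had 2.35-fold, with ointment 3 and 5 at 142 and 477 CPM and the rest at 3.88 to 60.5 CPM. In the other 3 the step crossed the groups. Oaz2, another antizyme, was at 31.6 to 42.7 CPM in saline 2, ointment 4 and ointment 5 and at 111 to 152 CPM in the other 7 libraries. Amd1, S-adenosylmethionine decarboxylase, which supplies the aminopropyl units to Srm and Sms, was at 24.8 to 40.5 CPM in saline 1, ointment 1 and ointment 3 and at 87.7 to 161 CPM in the other 7. It has a near-identical copy, Amd2, between which counting may split reads, so values of either are uncertain. Cyb5r3 was at 105 and 122 CPM in saline 4 and ointment 3 and at 255 to 323 CPM elsewhere. Just under that threshold (1.97-fold), Glud1, glutamate dehydrogenase, was at 70.8 to 98.0 CPM in 6 libraries and at 193 to 264 CPM in saline 2, ointment 2, ointment 3 and ointment 5 (log2 fold change 0.94, adjusted p = 0.297). These genes were picked after their values were seen.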
